A study of Mus musculus with 16 samples.

Results

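Transcript levels of 29 genes of sterol and fatty acid synthesis were described in the mouse Th-MYCN model of neuroblastoma. The members were taken by gene symbol from the count and TPM tables, which list 24411 genes, and all 29 were found, passed the filter on low counts and were tested together with 16665 genes in all. They are 17 enzymes that lead from acetyl units to cholesterol, 9 enzymes that supply acetyl units or build, lengthen and desaturate fatty acids, and 3 regulators. Bulk RNA-seq was read from 16 libraries in 5 groups. Celiac ganglia were taken at 2 weeks of age from MYCN WT mice that were Runx1t1 +/+ (4 libraries) or Runx1t1 +/- (3 libraries), and from MYCN homozygous mice, written here as Th-MYCN, that were Runx1t1 +/+ (3 libraries) or Runx1t1 +/- (2 libraries). The fifth group was 4 tumors of Th-MYCN Runx1t1 +/+ mice, for which the labels give no age. The Th-MYCN transgene places human MYCN under a tyrosine hydroxylase promoter, so it is active in cells of the neural crest lineage and not in every cell of a ganglion. The mice called MYCN WT lack this transgene. The Runx1t1 +/- mice carry 1 functional allele and 1 allele inactivated by an insertion. Runx1t1 is a transcriptional co-repressor, and the design asks what MYCN and the loss of a Runx1t1 allele change in tissue that is still ganglion, and what a tumor has that a ganglion lacks.

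Cholesterol synthesis starts with acetyl-CoA, passes through mevalonate and isoprenoid diphosphates to squalene, closes squalene into the ring of lanosterol and then trims lanosterol to cholesterol. Fatty acid synthesis starts from the same acetyl-CoA, which acetyl-CoA carboxylase turns into malonyl-CoA and fatty acid synthase joins into a saturated chain. Genes of both pathways are known targets of the membrane-bound transcription factors encoded by Srebf1 and Srebf2, which leave the endoplasmic reticulum when sterols are low. In the nervous system, neurons use cholesterol and lipid for neurite and synaptic membranes, and the glia that ensheathe them need far more for myelin.

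The promoters of 4 members are shown because they belong to genes on both sides of the main contrast: Hmgcs1, Mvk and Sc5d were lower in tumors and Fasn was higher there than in 2 of the 3 ganglion groups they were compared with. Each run holds the 250 bases before the RefSeq start site on GRCm38.p6, written on the strand of the gene. Capitals mark every match, on either strand, to the sterol response element TCACNCCAC, the E-box CACGTG, which MYC family proteins can bind, or the CCAAT box, which reads ATTGG on the opposite strand.
Hmgcs1, chr13:119690101-119690350, + strand: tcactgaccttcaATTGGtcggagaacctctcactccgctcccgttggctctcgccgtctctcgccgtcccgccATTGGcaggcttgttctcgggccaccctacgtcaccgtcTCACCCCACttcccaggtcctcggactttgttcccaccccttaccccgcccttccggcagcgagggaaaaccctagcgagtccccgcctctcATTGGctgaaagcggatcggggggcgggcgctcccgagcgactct
Mvk, chr5:114444019-114444268, + strand: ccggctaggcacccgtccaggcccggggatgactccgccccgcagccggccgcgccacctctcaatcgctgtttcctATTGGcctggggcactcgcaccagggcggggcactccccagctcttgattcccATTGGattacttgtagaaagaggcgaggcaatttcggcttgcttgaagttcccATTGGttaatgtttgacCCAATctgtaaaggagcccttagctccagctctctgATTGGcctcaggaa
Sc5d, chr9:42264301-42264550, - strand: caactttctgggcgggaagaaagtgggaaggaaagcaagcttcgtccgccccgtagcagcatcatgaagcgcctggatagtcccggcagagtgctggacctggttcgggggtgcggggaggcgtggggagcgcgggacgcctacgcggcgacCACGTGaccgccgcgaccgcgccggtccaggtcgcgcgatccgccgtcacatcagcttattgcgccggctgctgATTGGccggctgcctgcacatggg
Fasn, chr11:120824548-120824797, - strand: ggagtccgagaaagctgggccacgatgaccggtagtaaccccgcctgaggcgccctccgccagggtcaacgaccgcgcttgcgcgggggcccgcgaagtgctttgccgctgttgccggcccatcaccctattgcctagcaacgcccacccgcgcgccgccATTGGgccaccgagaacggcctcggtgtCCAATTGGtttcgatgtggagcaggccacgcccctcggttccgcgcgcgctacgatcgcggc
RefSeq windows were matched for 23 of the 29 members. A CCAAT box was found in 18 of the 23 windows (78.3%), against 34.5% of 27025 genes. Mvk held 5, and Hmgcs1 and Fasn held 3 each, of which a pair overlaps in Fasn. The sterol response element as spelled here was found in the Hmgcs1 window, 1 of 23 (4.35%, against 1.04% of genes). The E-box was found in 3 of 23 windows, those of Hsd17b7, Insig1 and Sc5d (the share over all genes was 6.05%). These letters describe the windows and were not tested for binding. In Acaca the RefSeq start used lies 65766 bases inside the annotated gene, so its window is not the promoter of the longest transcript. The starts of Tm7sf2, Fads2 and Msmo1 lie 523, 243 and 214 bases inside, so their windows lie wholly or mostly within the annotated gene.

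Library totals ran from 10692299 to 38618757 expected counts, and 6 of the 12 ganglion libraries held under 20000000. The members took 0.365% to 0.807% of the counts, and the lowest count of any member in any library was 72. Sympathetic neuron markers (13 genes, Th and Dbh among them) summed to between 7798 and 20897 TPM in ganglia and to between 2833 and 4800 TPM in tumors. The labels call the cell type of every library neuroblastoma, while the ganglia also held glial markers. Runx1t1 itself did not separate the genotypes: it read 2.78 to 4.41 TPM in MYCN WT Runx1t1 +/+ and 4.36 to 6.28 TPM in MYCN WT Runx1t1 +/- ganglia. With Th-MYCN it read 7.90 to 70.3 TPM in Runx1t1 +/+ and 8.83 and 16.9 TPM in Runx1t1 +/- ganglia, against 29.5 to 55.8 TPM in tumors. Whether an insertion allele still yields counted transcript was not tested. A pair of libraries stood apart, and results are also given without both of them. MYCN WT Runx1t1 +/+ ganglion 2 held lymphocyte markers at 755 TPM in sum, against at most 8.04 TPM elsewhere. Tumor 3 held hepatocyte markers at 8331 TPM in sum, against at most 445 TPM elsewhere. The ribosomal transcript Rn45s took 8.57% to 12.8% of counts in tumors, 8.80% in Th-MYCN Runx1t1 +/+ ganglion 1 and 2.15% to 5.64% in the other ganglia.

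Many sterol synthesis genes were lower in tumors than in ganglia, Hmgcs1, Mvk, Tm7sf2, Msmo1 and Fdft1 in all 3 comparisons. Against MYCN WT Runx1t1 +/+ ganglia, 11 of the 17 sterol enzymes fell and none passed the test upward. The 3 regulators fell with them, and the 9 fatty acid enzymes split, with 3 lower, 2 higher and 4 not past the threshold. In all, 19 of the 29 members were called (65.5%), 17 lower and 2 higher, beside a background of 57.7% of all genes tested (27.0% higher and 30.7% lower). The median log2 fold change was -0.61 over the members and -0.11 over all genes tested. Against Th-MYCN Runx1t1 +/+ ganglia, 14 members were called, all lower (48.3%), where 34.5% of genes were called, 14.0% higher and 20.5% lower. The median there was -0.64 for the members and -0.01 for all genes. Against Th-MYCN Runx1t1 +/- ganglia, 15 members were called, 13 lower and 2 higher (51.7%), where 45.5% of genes were called, 22.0% higher and 23.5% lower. The medians were -0.63 and 0.07. These 3 comparisons share the 4 tumor libraries, so they are not independent of each other.

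**Figure D1:**
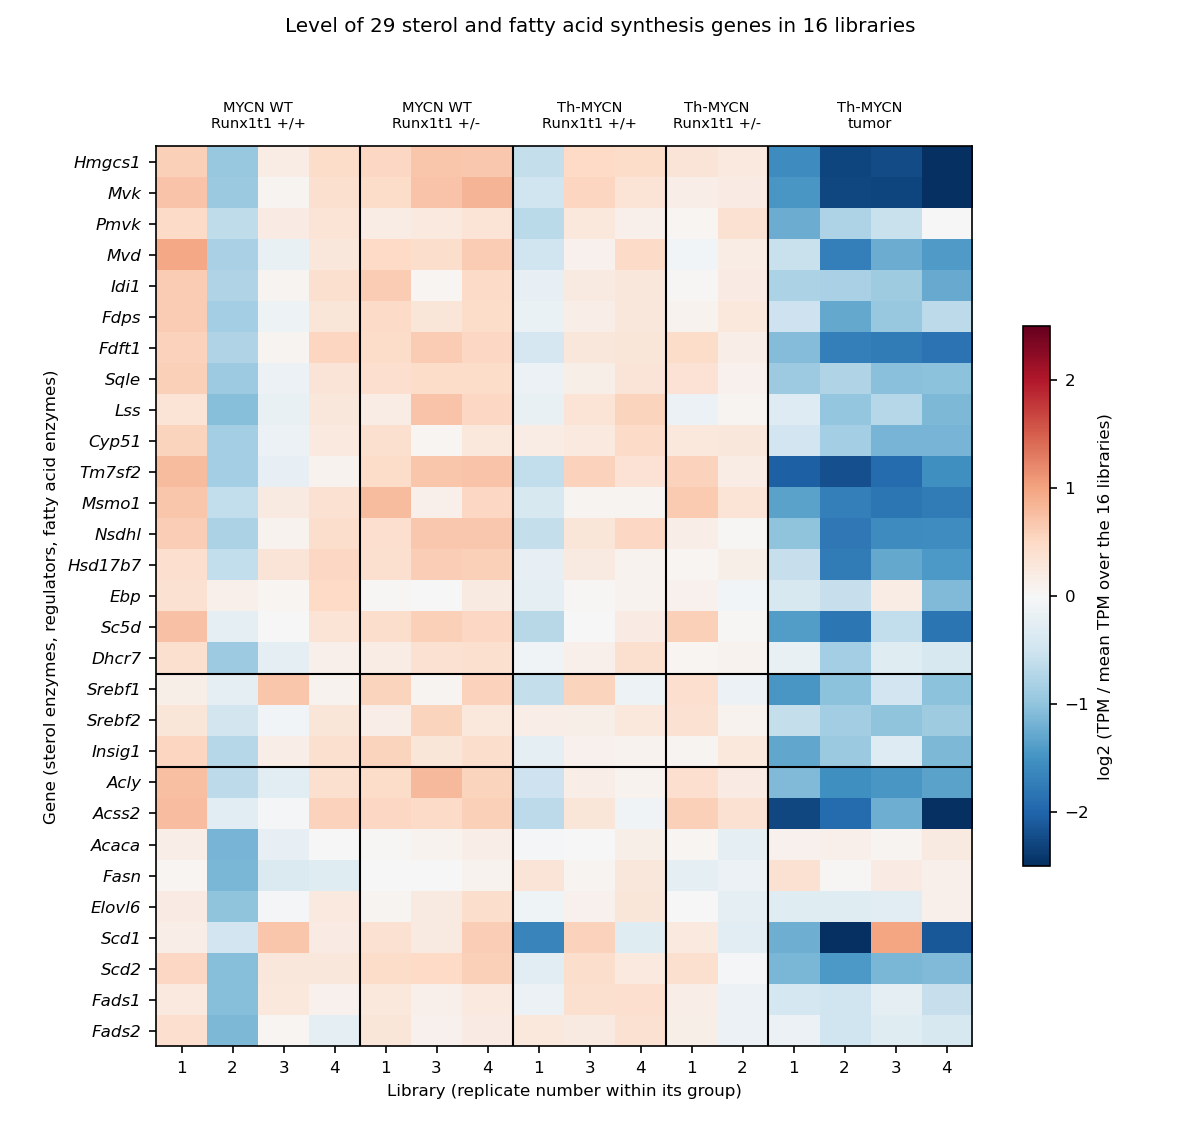
Each cell is the log2 ratio of a gene's TPM in a library to its mean TPM over the 16 libraries, with genes in rows, libraries in columns and horizontal lines between the 17 sterol enzymes, 3 regulators and 9 fatty acid enzymes. The tumor columns are blue for most sterol enzymes and near white for Acaca and Fasn, and ganglion 2 of the MYCN WT Runx1t1 +/+ group is pale blue for most genes.

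Without ganglion 2 and tumor 3 the counts of called members rose to 23, 19 and 20 in the 3 comparisons, and 14, 11 and 10 of the 17 sterol enzymes were then lower, where 56.5%, 37.1% and 48.3% of all genes were called and 28.9%, 21.3% and 24.3% were lower. Several counts also rested on 1 library. Against Th-MYCN Runx1t1 +/+ ganglia, leaving out ganglion 3 or ganglion 4 of that group gave 9 members each, where 21.3% and 24.4% of all genes were called. Against Th-MYCN Runx1t1 +/- ganglia, leaving out ganglion 1 gave 7 and leaving out ganglion 2 gave 9, with no member higher in either case, where 24.8% and 32.8% of all genes were called, so the members' shares were then close to the background. On the TPM scale, tested with limma on log2(TPM + 1), 22 members were called against MYCN WT Runx1t1 +/+ ganglia, 21 of them lower. The same test called 20 against Th-MYCN Runx1t1 +/+ ganglia, all lower, and 19 against Th-MYCN Runx1t1 +/- ganglia, where the split was 0 higher and 19 lower in place of 2 and 13. The shares of all genes called on that scale were 57.3%, 37.2% and 47.9%. The TPM scale moved the median of all genes to -0.36 against MYCN WT Runx1t1 +/+ ganglia, so a gene level with the median there reads as lower.

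The order of libraries showed the same in single genes. In CPM, all 4 tumors lay below all 12 ganglia for 7 members, Hmgcs1, Mvk, Fdft1, Tm7sf2, Msmo1, Acly and Acss2, where 16.1% of all genes tested did the same. All 4 tumors lay above all 12 ganglia for 1 member, Acaca, where 14.4% of genes did. Leaving out ganglion 2 of the MYCN WT Runx1t1 +/+ group raised the first number to 13, where 18.1% of genes then did the same. In mean TPM the tumors were the lowest of the 5 groups for 27 of the 29 members, the exceptions being Acaca and Fasn, and for 54.9% of all genes tested. In mean CPM they were lowest for 21 members and for 40.6% of genes.

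**Figure D2:**
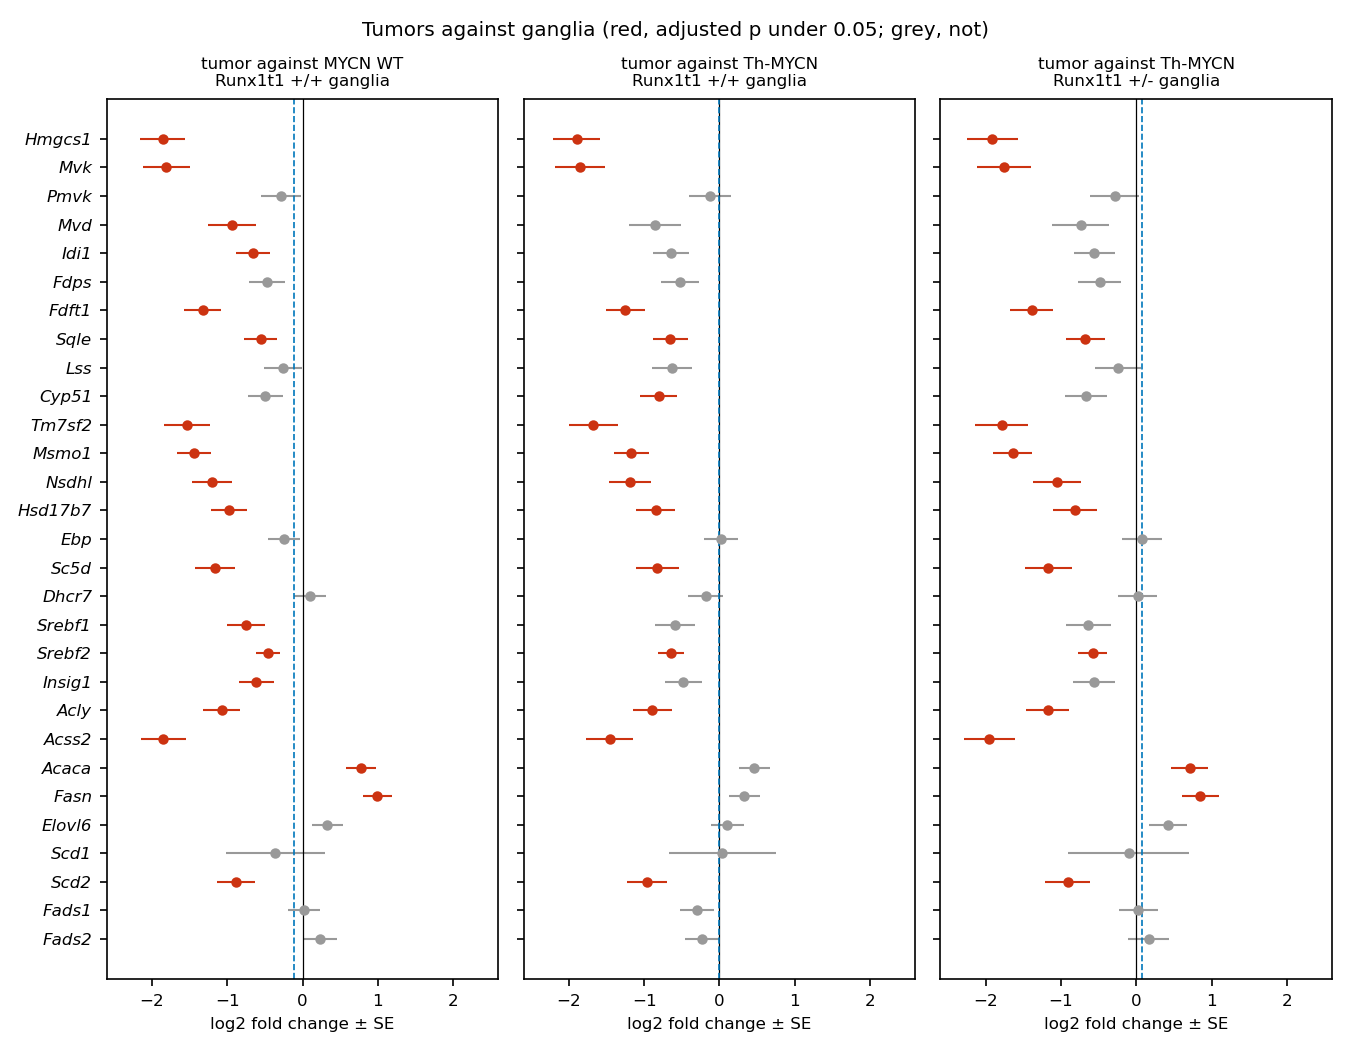
Points are log2 fold changes of the tumors against each of 3 ganglion groups with bars of 1 SE, for the 29 genes from top to bottom in pathway order, red where the adjusted p was under 0.05, and the dashed line is the median of all genes tested. Hmgcs1, Mvk, Msmo1 and Acss2 sit between -1.17 and -1.95 in all 3 panels, and Acaca and Fasn sit to the right of the dashed line.

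Hmgcs1 (chr13:119690379-119708260, + strand, GRCm38, as are the positions that follow) encodes the cytosolic synthase that makes HMG-CoA, an early intermediate of the pathway. It read 448, 153, 336 and 407 TPM in the 4 MYCN WT Runx1t1 +/+ ganglia and 421, 477 and 468 TPM in the 3 Runx1t1 +/- ganglia. With Th-MYCN it read 195, 415 and 404 TPM in Runx1t1 +/+ and 371 and 351 TPM in Runx1t1 +/- ganglia. The tumors read 99.2, 60.0, 62.9 and 52.6 TPM, so the highest tumor was below the lowest ganglion. The log2 fold change was -1.86 (SE 0.296, adjusted p = 0.0001432) against MYCN WT Runx1t1 +/+ ganglia, a 3.63-fold lower level. It was -1.89 (SE 0.311, adjusted p = 0.0005218) and -1.91 (SE 0.338, adjusted p = 0.000519) against Th-MYCN ganglia with Runx1t1 +/+ and Runx1t1 +/-. Without the 2 libraries that stood apart the first of these was -2.03.

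Mvk (chr5:114444269-114460591, + strand), the mevalonate kinase, fell with it from a lower level. The 4 MYCN WT Runx1t1 +/+ ganglia held 125, 39.8, 79.6 and 100.3 TPM, and the 3 Runx1t1 +/- ganglia held 104, 124 and 136 TPM. The Th-MYCN ganglia held 54.0, 110 and 95.9 TPM in Runx1t1 +/+ and 84.8 and 87.8 TPM in Runx1t1 +/-. The tumors held 27.7, 15.6, 15.6 and 13.4 TPM, again with no overlap. Mvk was 3.51-fold lower than in MYCN WT Runx1t1 +/+ ganglia (log2 fold change -1.81, SE 0.311, adjusted p = 0.0002517).

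The other mevalonate steps changed less. Mvd, the decarboxylase that follows, read 28.6 to 98.2 TPM in ganglia and 15.4 to 34.2 TPM in tumors, with overlap, and fell by 0.94 on the log2 scale (adjusted p = 0.02271). Idi1, the isomerase that balances the isoprenoid diphosphates, read 54.5 to 142 TPM in ganglia and 38.5 to 53.0 TPM in tumors, and fell by 0.66 (adjusted p = 0.02166). Neither passed the test against either group of Th-MYCN ganglia, with adjusted p from 0.05006 to 0.13. Without the 2 libraries that stood apart Idi1 passed against Th-MYCN Runx1t1 +/+ ganglia, at -0.64 (adjusted p = 0.02365). The calls of Mvd and Idi1 against MYCN WT Runx1t1 +/+ ganglia were lost in 5 of 19 and 4 of 19 alternative settings. Fdps, which makes farnesyl diphosphate for sterols and for protein prenylation, stayed among the most abundant members, at 209 to 583 TPM in ganglia and 154 to 264 TPM in tumors. Its log2 fold change of -0.47 (adjusted p = 0.1047) did not pass, nor did Pmvk, the phosphomevalonate kinase, at -0.28 (adjusted p = 0.3727). Of the sequence words of 50 bases in their transcripts, Fdps shares 26.2% and Idi1 17.7% with other annotated genes, so the counting could have split their reads.

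Fdft1 (chr14:63145150-63179578, - strand) encodes squalene synthase, which commits isoprenoids to sterols. It read 74.6 to 194 TPM in ganglia and 35.0 to 59.2 TPM in tumors, with no overlap. It fell 2.504-fold against MYCN WT Runx1t1 +/+ ganglia (log2 fold change -1.32, SE 0.245, adjusted p = 0.0004438), and by 1.25 and 1.39 on the log2 scale against Th-MYCN ganglia. Sqle, the squalene epoxidase, was lower in each of the 3 comparisons by a small margin, with log2 fold changes of -0.56, -0.65 and -0.68 and adjusted p of 0.0438, 0.04536 and 0.04945. Those 3 calls were lost in 10 of 19, 7 of 18 and 9 of 16 alternative settings. Lss, which folds the ring of lanosterol, read 13.9 to 47.5 TPM in ganglia and 13.3 to 23.0 TPM in tumors and did not pass (log2 fold change -0.26, adjusted p = 0.3841).

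Of the 8 enzymes between lanosterol and cholesterol, 5 fell against MYCN WT Runx1t1 +/+ ganglia. Msmo1, the methyl sterol oxidase, read 196, 78.8, 143 and 158 TPM in those 4 ganglia and 210, 133 and 174 TPM in the Runx1t1 +/- ganglia. It read 92.5, 127 and 127 TPM in Th-MYCN Runx1t1 +/+ ganglia, 191 and 154 TPM in Th-MYCN Runx1t1 +/- ganglia, and 47.8, 37.1, 34.8 and 36.2 TPM in tumors. The tumors lay below every ganglion, and the log2 fold change was -1.45 (SE 0.223, adjusted p = 0.0001124), or 2.72-fold. Against the 2 Th-MYCN groups it was -1.17 and -1.64.

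Tm7sf2, a sterol reductase of the same stretch, was the scarcest member in tumors, at 4.23 to 6.73 TPM against 10.9 to 33.6 TPM in ganglia. It fell 2.90-fold (log2 fold change -1.53, SE 0.309, adjusted p = 0.0008344), with 9.87% of its sequence words shared with its neighbour Vps51. Nsdhl, the decarboxylating sterol dehydrogenase, fell by 1.199 on the log2 scale (adjusted p = 0.001767), from 22.9 to 63.5 TPM in ganglia to 11.5 to 19.8 TPM in tumors. Hsd17b7, the ketosteroid reductase that acts with it, fell by 0.98 (adjusted p = 0.003843). Sc5d, the sterol desaturase, fell by 1.16 (adjusted p = 0.002131), although tumor 3, at 33.2 TPM, reached the lowest ganglion at 31.5 TPM.

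The remaining 3 were different. Cyp51, the lanosterol demethylase that opens this stretch, passed against Th-MYCN Runx1t1 +/+ ganglia (log2 fold change -0.81, adjusted p = 0.0214) and read -0.49 (adjusted p = 0.08106) against MYCN WT Runx1t1 +/+ ganglia. Ebp, the sterol isomerase, read 19.9 to 33.2 TPM in ganglia and 10.95 to 26.9 TPM in tumors and did not pass in any of the 3 comparisons. Dhcr7, the last reductase, read 21.5 to 53.5 TPM in ganglia and 22.5 to 35.7 TPM in tumors, with a log2 fold change of 0.10 (SE 0.211, adjusted p = 0.7141) that read -0.27 on the TPM scale and 0.09 relative to the median of all genes on that scale. Without the 2 libraries that stood apart, Cyp51, Ebp and Fdps did pass against MYCN WT Runx1t1 +/+ ganglia, at -0.58, -0.51 and -0.61.

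**Figure D3:**
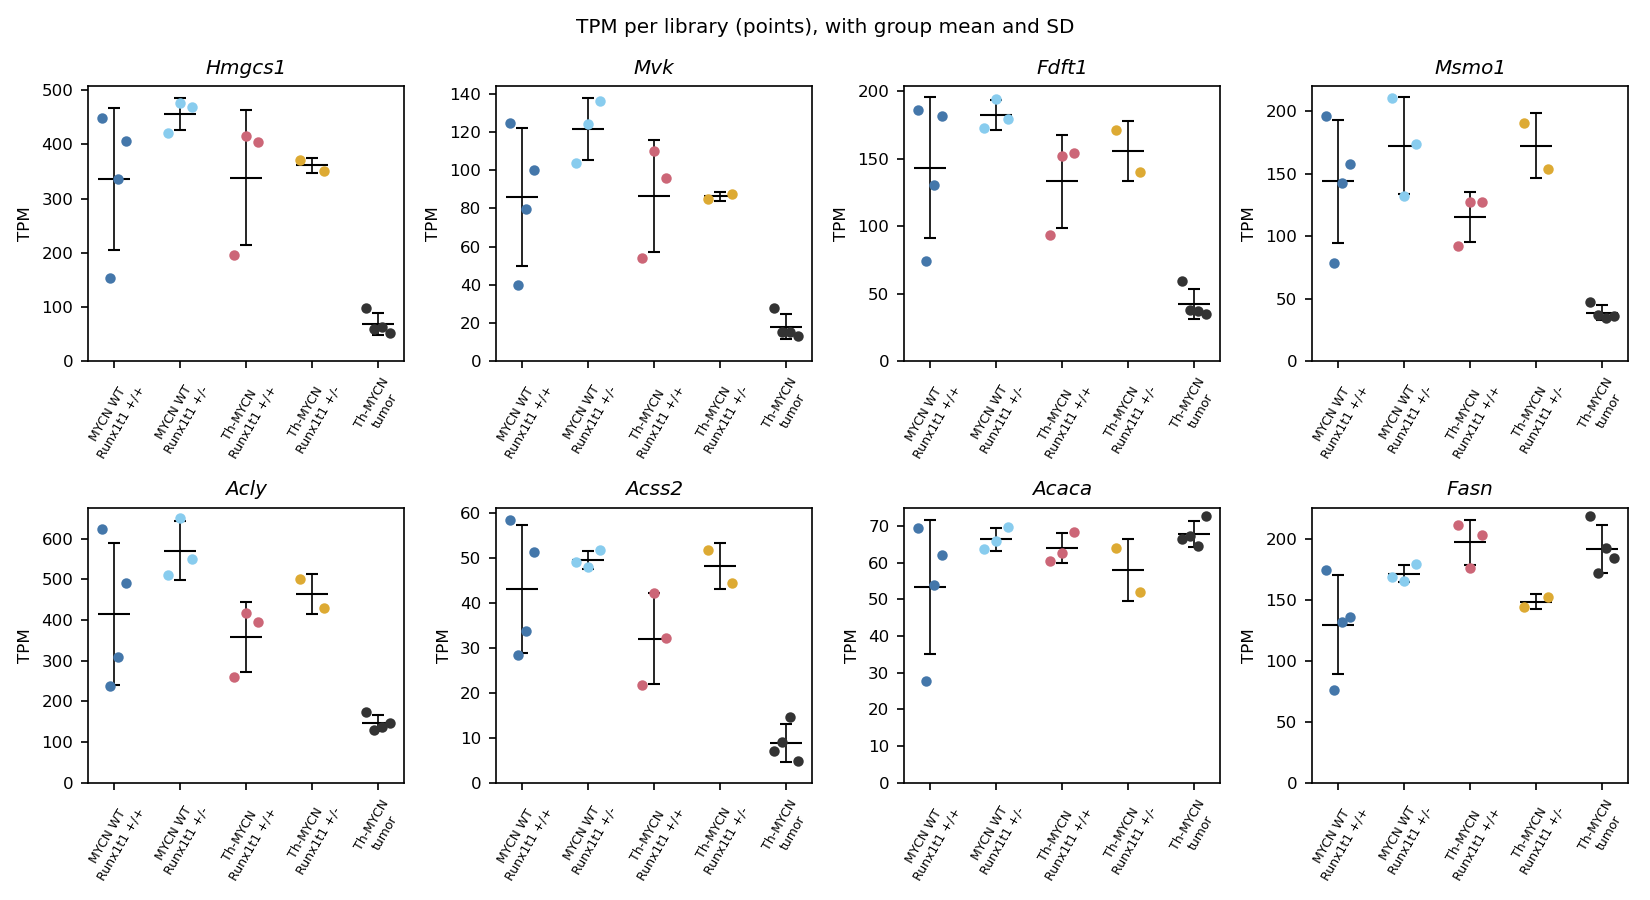
Each panel plots the TPM of 1 gene in every library of the 5 groups (points) with the group mean and SD, on an axis from 0. Tumor values lie below all ganglia for Hmgcs1, Mvk, Fdft1, Msmo1, Acly and Acss2, and among or above the ganglia for Acaca and Fasn.

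The 3 regulators were lower in tumors as well. Srebf2, whose product drives sterol genes first of all, read 121 to 246 TPM in ganglia and 110, 91.0, 82.4 and 90.2 TPM in tumors, with no overlap in TPM. In CPM there was overlap, with tumor 1 at 274 and MYCN WT Runx1t1 +/+ ganglion 2 at 241. Srebf2 was lower in all 3 comparisons, by 0.46, 0.64 and 0.58 on the log2 scale (adjusted p = 0.0276, 0.01249 and 0.02707). Srebf1, whose product leans to fatty acid genes, read 35.7 to 87.8 TPM in ganglia and 19.7 to 38.8 TPM in tumors, and fell by 0.75 against MYCN WT Runx1t1 +/+ ganglia (adjusted p = 0.02079). Insig1, which holds the precursors in the endoplasmic reticulum, fell by 0.61 there (adjusted p = 0.0339). Srebf1 and Insig1 did not pass against Th-MYCN ganglia, with adjusted p from 0.1034 to 0.1453. Without the 2 libraries that stood apart, all 3 regulators passed in all 3 comparisons. Over the alternative settings, the Srebf2 calls were lost in 7 of 19, 0 of 18 and 6 of 16, in the order given above. The calls of Insig1 and Srebf1 against MYCN WT Runx1t1 +/+ ganglia were lost in 9 of 19 and 2 of 19.

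Among the enzymes that supply acetyl-CoA, both fell. Acss2 (chr2:155517948-155585724, + strand), which activates acetate, read 58.5, 28.4, 33.8 and 51.4 TPM in MYCN WT Runx1t1 +/+ ganglia, 49.1, 47.9 and 51.7 TPM in Runx1t1 +/- ganglia, and 7.09, 8.98, 14.6 and 4.88 TPM in tumors. In Th-MYCN ganglia it read 21.8, 42.1 and 32.2 TPM with Runx1t1 +/+ and 51.7 and 44.5 TPM with Runx1t1 +/-. The groups did not overlap, and the level was 3.61-fold lower than in MYCN WT Runx1t1 +/+ ganglia (log2 fold change -1.85, SE 0.299, adjusted p = 0.000158). Acly, which splits citrate, held place 2 by mean TPM in MYCN WT ganglia and read 237 to 650 TPM over all ganglia and 129 to 175 TPM in tumors. It fell by 1.07 on the log2 scale (SE 0.242, adjusted p = 0.001866).

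The next steps of fatty acid synthesis went the other way. Fasn (chr11:120805846-120824547, - strand), the synthase itself, read 175, 76.0, 132 and 136 TPM in MYCN WT Runx1t1 +/+ ganglia and 169, 166 and 180 TPM in Runx1t1 +/- ganglia. It read 212, 176 and 204 TPM in Th-MYCN Runx1t1 +/+ ganglia, 144 and 153 TPM in Th-MYCN Runx1t1 +/- ganglia, and 219, 172, 193 and 185 TPM in tumors. In TPM the tumors overlapped both MYCN WT groups and the Th-MYCN Runx1t1 +/+ ganglia, and lay above both ganglia of the Th-MYCN Runx1t1 +/- group. In CPM the tumors read 972 to 1211, and among ganglia only Th-MYCN Runx1t1 +/+ ganglion 1, at 993, reached that range. Fasn was 1.99-fold higher than in MYCN WT Runx1t1 +/+ ganglia (log2 fold change 0.99, SE 0.194, adjusted p = 0.0006836) and 1.80-fold higher than in Th-MYCN Runx1t1 +/- ganglia (0.85, SE 0.245, adjusted p = 0.01194). Against Th-MYCN Runx1t1 +/+ ganglia it did not pass (0.33, adjusted p = 0.2367). On the TPM scale the 3 values were 0.62, 0.36 and -0.04, and only the first passed (adjusted p = 0.01315). Relative to the median of all genes on that scale they were 0.98, 0.68 and 0.25.

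Acaca (chr11:84129672-84401651, + strand), the carboxylase that makes malonyl-CoA, was the steadiest member in tumors, at 66.3, 67.3, 64.5 and 72.8 TPM. Ganglia read 27.7 to 69.7 TPM, so the tumors overlapped them in TPM while exceeding all of them in CPM. The log2 fold change was 0.78 (SE 0.194, adjusted p = 0.003781) against MYCN WT Runx1t1 +/+ and 0.71 (SE 0.244, adjusted p = 0.02864) against Th-MYCN Runx1t1 +/- ganglia. It was 0.46 (adjusted p = 0.1019) against Th-MYCN Runx1t1 +/+ ganglia, and 0.504 there without the 2 libraries that stood apart (adjusted p = 0.01039). On the TPM scale none of the 3 passed, with values of 0.42, 0.23 and 0.08 (adjusted p = 0.1077, 0.504 and 0.804), or 0.78, 0.54 and 0.37 relative to the median of all genes. Acaca shares 30.4% of its sequence words with other annotated genes, so part of its reads could have been split by the counting.

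The ratio of Fasn to Hmgcs1 within a library needs no scaling between libraries. It lay between 0.334 and 0.504 in 11 of the 12 ganglia, at 1.08 in Th-MYCN Runx1t1 +/+ ganglion 1, and at 2.21, 2.87, 3.07 and 3.52 in the tumors. By mean TPM, Fasn held place 10 among the 29 members in MYCN WT ganglia and place 3 in tumors, Acaca went from place 21 to 11, and Hmgcs1 from place 4 to 10. Such ratios show unequal change and not which gene moved.

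Of the 5 genes of elongation and desaturation, 1 passed the test against MYCN WT Runx1t1 +/+ ganglia. Scd2, the desaturase typical of neural tissue, was the most abundant member in both tissues, at 314 to 992 TPM in ganglia and 297, 245, 297 and 305 TPM in tumors. It fell by 0.89 on the log2 scale (SE 0.251, adjusted p = 0.008278) against MYCN WT Runx1t1 +/+ ganglia and by 0.96 and 0.91 against Th-MYCN ganglia. Elovl6, which lengthens palmitate, read 25.0 to 67.9 TPM in ganglia and 40.8 to 54.9 TPM in tumors and did not pass (0.33, adjusted p = 0.1801). Without the 2 libraries that stood apart Elovl6 passed as higher against Th-MYCN Runx1t1 +/- ganglia, at 0.47 (adjusted p = 0.03888). Fads1 and Fads2, which desaturate polyunsaturated chains, read 0.02 and 0.23 on the log2 scale (adjusted p = 0.9441 and 0.3769). On the TPM scale Elovl6, Fads1 and Fads2 read -0.04, -0.32 and -0.11, which relative to the median of all genes on that scale is 0.32, 0.04 and 0.25.

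Scd1 (chr19:44394455-44407879, - strand), the desaturase of liver and fat, was the least steady member in tumors, at 97.9, 26.5, 449 and 52.4 TPM. The high value is tumor 3, the library with hepatocyte markers at 8331 TPM. Scd1 made up 60.2% of Scd1 plus Scd2 there and 24.8%, 9.79% and 14.7% in the other tumors, against 11.98% to 34.2% in ganglia. Over all 4 tumors the log2 fold change was -0.36 (SE 0.657, adjusted p = 0.6565). Without tumor 3 and ganglion 2 it was -1.88 (SE 0.486, adjusted p = 0.005599), and Scd1 passed as lower in the other 2 tumor comparisons too (-1.32 and -1.46). In ganglia the extremes were 73.1 TPM in Th-MYCN Runx1t1 +/+ ganglion 1 and 371 TPM in MYCN WT Runx1t1 +/+ ganglion 3. Their adipocyte marker sums were 108 and 2272 TPM. The order was not the same throughout. The highest adipocyte sum, 3689 TPM in Th-MYCN Runx1t1 +/+ ganglion 3, went with Scd1 at 339 TPM. In MYCN WT Runx1t1 +/- ganglion 4, Scd1 at 348 TPM went with a sum of 825 TPM. The part of hepatocyte or adipocyte RNA in Scd1 was not tested.

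Cell type markers moved with the tumor comparison. All 8 glial markers fell against MYCN WT Runx1t1 +/+ ganglia, from sums of 457 to 1717 TPM over the ganglia to 13.5 to 29.6 TPM in tumors, with Foxd3 listed at 0 in tumor 3. Myelinating Schwann cell markers fell in 8 of 12, from 253 to 1452 TPM to 62.9 to 100 TPM, and all 6 fibroblast markers fell, from 888 to 7899 TPM to 171 to 506 TPM. All 8 markers of cycling cells rose, from 27.1 to 1086 TPM to 1235 to 1504 TPM, with 8 of 8 also higher than in Th-MYCN Runx1t1 +/- ganglia and 0 of 8 past the test against Th-MYCN Runx1t1 +/+ ganglia, where 22.0% and 14.0% of all genes were higher. Of 13 sympathetic neuron markers 9 fell and 2 rose. Of 6 adrenal cortex markers tested 5 fell, with sums of 6.48 to 101 TPM in ganglia and 3.05 to 5.66 TPM in tumors, and of 6 endothelial markers 4 fell, from 34.0 to 561 TPM to 31.6 to 79.5 TPM. Adipocyte markers fell in 2 of 8, where 30.7% of all genes were lower, with sums of 108 to 3689 TPM in ganglia and 71.5 to 445 TPM in tumors. Of 7 hepatocyte markers 3 rose, and of 6 lymphocyte markers tested 4 fell. Hepatocyte markers were highest in tumor 3 and lymphocyte markers in MYCN WT Runx1t1 +/+ ganglion 2. Of 6 macrophage markers 1 rose, where 27.0% of all genes were higher, and of 5 erythroid markers 0 passed. In bulk RNA, fewer cells of a type and less RNA per cell cannot be told apart, and the part of this shift in the members' values was not tested. For scale, the 17 sterol enzymes summed to 962 to 2538 TPM in ganglia and 636 to 875 TPM in tumors, and the 9 fatty acid enzymes to 979 to 2530 TPM and 854 to 1387 TPM.

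**Figure D4:**
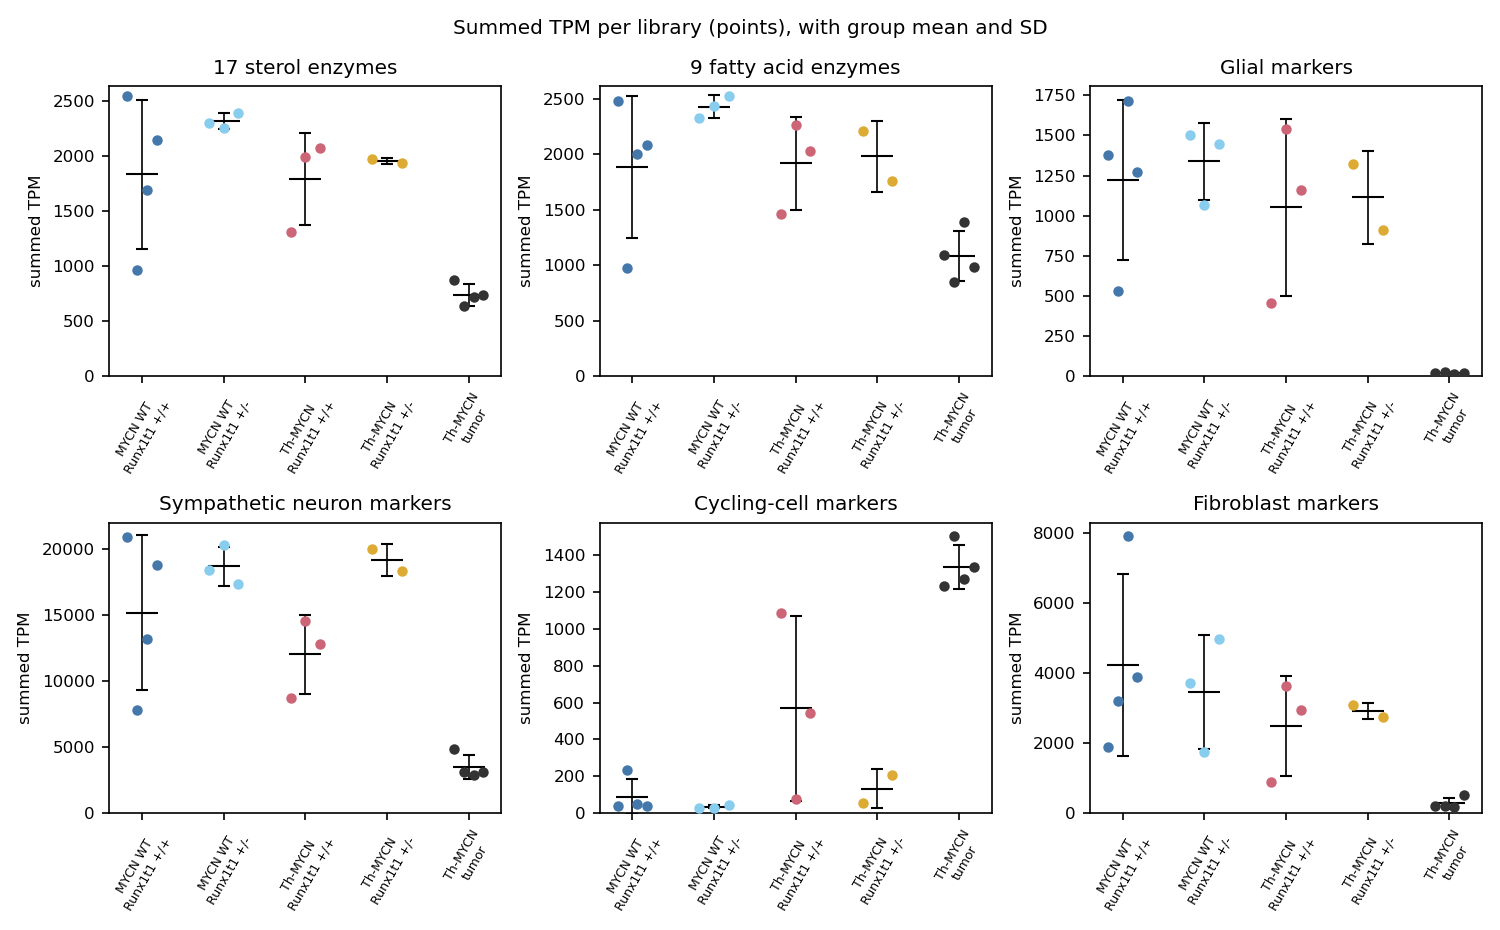
Points are summed TPM per library in the 5 groups, with group mean and SD, for the 17 sterol enzymes, the 9 fatty acid enzymes and 4 lists of cell type markers, each on its own axis from 0. The sterol enzymes sum to 636 to 875 TPM in tumors, below all ganglia, and glial markers to at most 29.6 TPM in tumors.

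Th-MYCN Runx1t1 +/+ ganglion 1 stood below the rest of its group for most members. Its cycling markers summed to 1086 TPM, above ganglia 3 and 4 of the group at 76.7 and 541 TPM. Its glial markers summed to 457 TPM, below those 2 at 1540 and 1160 TPM. Its sterol enzymes summed to 1307 TPM, while the other 2 ganglia of the group held 1990 and 2067 TPM. It was below both of them for 26 of the 29 members, with a median ratio of 0.680, where 51.9% of tested genes averaging 1 TPM or more did the same. MYCN WT Runx1t1 +/+ ganglion 2 was below all 6 other MYCN WT ganglia for 28 members, with a median ratio of 0.436, where 40.4% of genes were. Within that group the median coefficient of variation of the members was 35.8%, or 18.9% without ganglion 2, against 8.04% in MYCN WT Runx1t1 +/- ganglia and 23.5% in tumors.

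Between groups of ganglia no member passed the threshold in the edgeR fit. MYCN in Runx1t1 +/+ ganglia left none of the 29 past the threshold, where 0.936% of all genes were called. An unadjusted p under 0.05 was found for 1 member and for 3302 of the 16665 genes tested. DESeq2 called 1 member and 6.62% of genes, and edgeR called 1 member and 10.9% of genes when Th-MYCN Runx1t1 +/+ ganglion 3 was left out. The edgeR share of genes was 0% without ganglion 1 or 4 of that group, or without MYCN WT Runx1t1 +/+ ganglion 1, 3 or 4. It was also 0% with the replicate number as a block, and with only the compared groups fitted. The member with the low unadjusted p was Fasn, at 0.66 on the log2 scale (SE 0.207, adjusted p = 0.1161), with all 3 Th-MYCN ganglia above all 4 MYCN WT ganglia in TPM (lowest 176, highest 175) and an overlap in CPM (lowest 716, highest 720). Such an order held for 1 of 29 members in TPM and 0 in CPM, and for 4.93% and 4.72% of all genes. MYCN in Runx1t1 +/- ganglia left 0 members and 0% of genes, with 0 members and 242 of the 16665 genes tested at an unadjusted p under 0.05. All 29 log2 fold changes were nevertheless below 0, from -0.56 to -0.01, where 47.5% of all genes tested were above 0. Both Th-MYCN Runx1t1 +/- ganglia lay below all 3 MYCN WT Runx1t1 +/- ganglia for 15 of 29 members in TPM and 19 in CPM, where 9.02% and 11.9% of genes did. The members share the same 5 libraries, so they are not independent counts of that order. Loss of a Runx1t1 allele left 0 members in Th-MYCN ganglia, where 0.0120% of genes were called, and 0 in MYCN WT ganglia, where 0% were. An unadjusted p under 0.05 was found for 0 members in either, and for 2094 and 687 of the 16665 genes tested. DESeq2 called 0 members for MYCN in Runx1t1 +/- ganglia, where 0.0727% of genes were called. It called 0 for loss of the allele in Th-MYCN and MYCN WT ganglia, where 1.31% and 0.0104% were. In MYCN WT ganglia 28 of 29 members read above 0, from 0.08 for Pmvk to 0.54 for Tm7sf2, against the group that contains ganglion 2, where 45.4% of all genes were above 0. Without that library and tumor 3 the median of the 29 dropped from 0.31 to 0.12. Standard errors ran from 0.18 to 0.86 on the log2 scale in these comparisons.

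**Figure D5:**
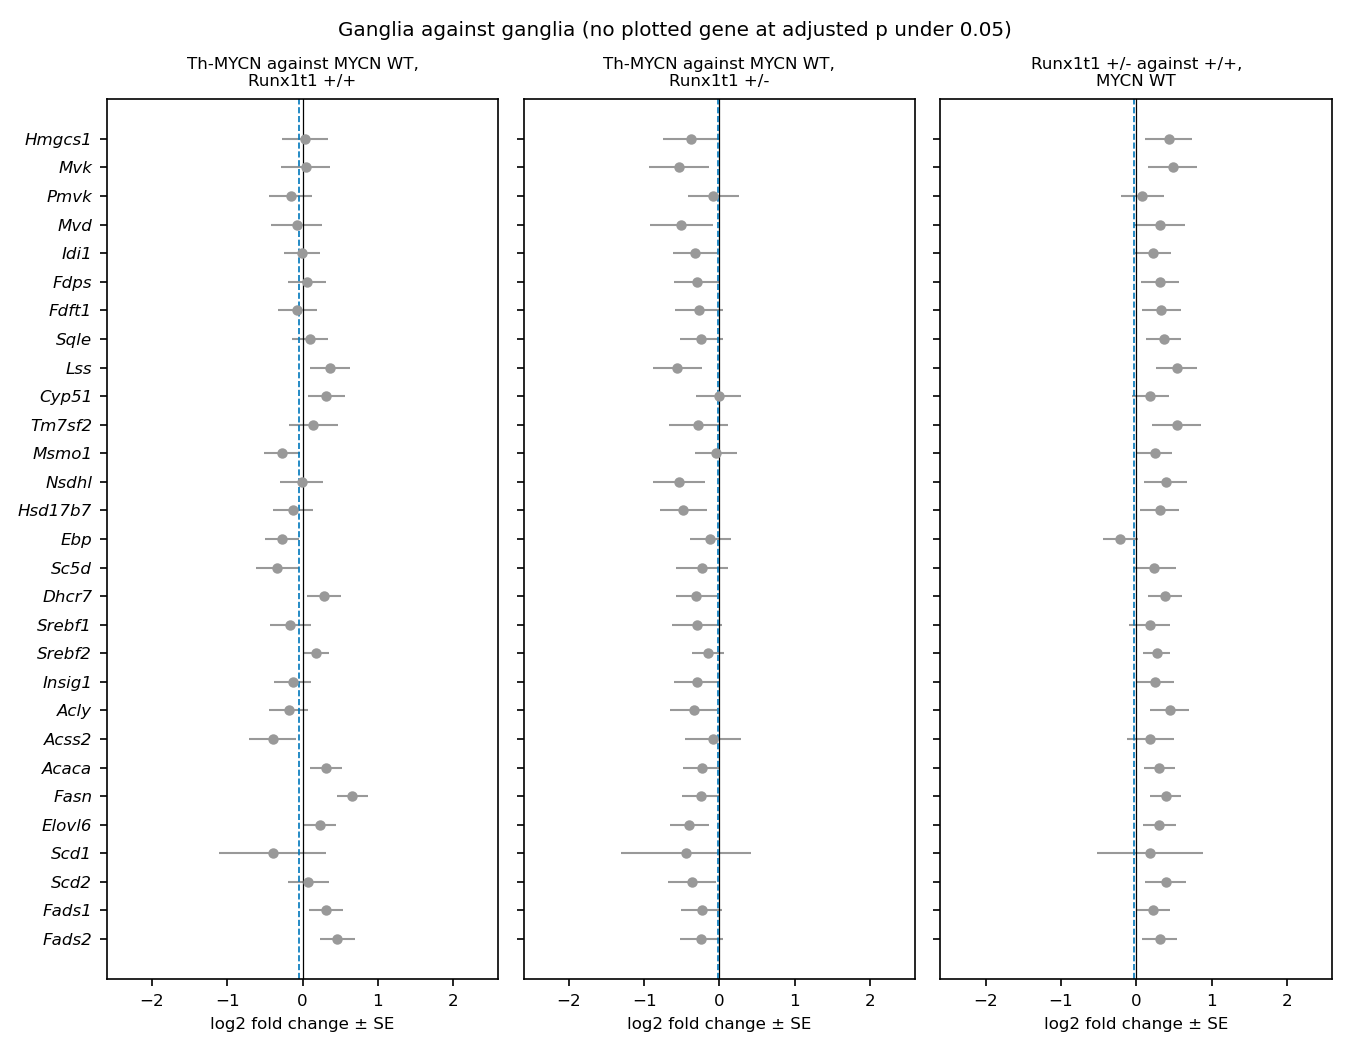
Points are log2 fold changes with bars of 1 SE for the 29 genes in 3 comparisons between groups of ganglia, all grey because no adjusted p was under 0.05, and the dashed line is the median of all genes tested. Fasn is highest in the first panel at 0.66, the second panel lies left of 0, and 28 of 29 points of the third lie right of 0.

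The effect of MYCN was also compared between Runx1t1 genotypes by an interaction term, for which DESeq2 called 0.156% of genes. The edgeR fit called 0 members and 0% of genes. An unadjusted p under 0.05 was found for 937 of the 16665 genes tested and for 2 members. These were Lss at -0.92 and Fasn at -0.91 (adjusted p = 0.8452 for each).

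Other genes of these pathways were counted in 6 lists, against MYCN WT Runx1t1 +/+ ganglia unless stated, where 30.7% of all genes tested were lower and 27.0% higher. Among 9 genes of SREBP processing and sterol uptake, 5 fell and 3 rose (median log2 fold change -0.51, beside -0.11 over all genes). Against Th-MYCN ganglia 3 fell in each comparison, with 1 higher for Runx1t1 +/+ (20.5% of all genes lower and 14.0% higher) and 2 higher for Runx1t1 +/- (23.5% and 22.0%). Npc1 fell by 0.97 on the log2 scale and Stard4 by 0.88, both of which move cholesterol inside the cell. Mbtps2 and Mbtps1, the proteases that release SREBP, rose by 1.66 and 0.92, and Scap, its escort, by 0.48. Of 5 other sterol synthesis genes tested, 1 fell and 0 rose.

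Among 12 genes of cholesterol export, storage and turnover, 6 fell and 0 rose (median -0.87), led by Cyp46a1, the neuronal cholesterol hydroxylase, at -2.59, Abcg4 at -1.87 and Mylip at -1.67. Against Th-MYCN Runx1t1 +/+ and Runx1t1 +/- ganglia 2 of the 12 fell in each comparison and 0 rose, where 20.5% and 23.5% of all genes were lower. Among 23 other genes of fatty acid synthesis and elongation, 8 fell and 4 rose (median -0.49). Me1 and Slc25a1, which supply NADPH and cytosolic citrate for fatty acid synthesis, fell 8.49-fold and 8.02-fold, to 6.08 to 12.5 TPM and 19.3 to 40.7 TPM in tumors. Elovl7 fell by 2.59, while Elovl2 rose by 2.496 and Elovl4 by 0.93. Elovl3 also passed as higher, but at 0.53, 0.06, 23.7 and 0.44 TPM in the tumors and at most 0.22 TPM in ganglia it rests on tumor 3. Of 6 fatty acid activating enzymes 2 fell, Acsbg1 by 5.70 and Acsl4 by 1.71, and of 15 fatty acid oxidation genes 11 fell, among them Cpt1b by 4.19, Acadl by 3.17 and Acaa2 by 1.86. Cpt1b imports fatty acids into mitochondria, where Acadl and Acaa2 carry out steps of their breakdown. The median of the 15 was -1.42, and 9 of them fell against Th-MYCN Runx1t1 +/+ ganglia and 2 against Th-MYCN Runx1t1 +/- ganglia, where 20.5% and 23.5% of all genes were lower. The summed oxidation genes were highest in Th-MYCN Runx1t1 +/+ ganglion 3 (3001 TPM) and lowest among ganglia in ganglion 1 of that group (559 TPM), whose adipocyte markers summed to 3689 and 108 TPM. Against Th-MYCN Runx1t1 +/- ganglia 0 of 8 adipocyte markers were lower in tumors, with a median log2 fold change of 1.66, and the part of adipocyte RNA in the oxidation genes was not tested.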

How the data were processed

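Polyadenylated RNA, per the labels, of 12 celiac ganglia and 4 tumors was sequenced. A kit for total RNA is named in the methods. The authors aligned reads to mm10 with STAR and quantified genes with RSEM. The annotation release and the use of strand in counting are not given in the sources used here. The deposited tables hold the authors' expected counts (rounded here to whole numbers) and TPM for each library. Testing used edgeR 4.0.16 in R 4.3.3: TMM normalization, filterByExpr, 1 quasi-likelihood fit over all 5 groups, 8 comparisons, Benjamini-Hochberg adjustment over 16665 genes and a threshold of 0.05. The table headers mark Runx1t1 as Het or Hom, and Hom was read as homozygous wild type, the other Runx1t1 genotype the labels give. Human MYCN has no row in these tables. Levels are TPM, and log2 fold changes come from the deposited counts. Alternatives used DESeq2 1.42.0 and limma 3.58.1 on log2 of the deposited TPM with a pseudocount of 1. The labels do not say that replicates came from separate animals, so p-values measure the spread between these libraries, which may be partly technical. All members are named. From each pathway list, at most 3 higher and 3 lower genes averaging 1 TPM or more over the libraries are named by size of change against MYCN WT Runx1t1 +/+ ganglia. Members and lists were chosen with earlier results of these data known. The fit was run on simulated counts with 200 changed genes as a check of the code. The simulation gave every gene the same spread and held no libraries that stand apart. It does not measure the error rate in these libraries. Gene positions came from GENCODE and promoters from RefSeq, both on GRCm38. Precision is that of the counts and of 2 to 4 libraries a group, and standard errors come from the fit over libraries. Some genes of the lists are not reported here.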

Additional observations from a re-analysis of the deposited data

Results flagged for a closer look

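In 5 of 58 tests of a gene within a group of 4, 1 library lay far from the other 3 in TPM, and chance alone gives about 1 in 20. All 5 were among the tumors. Mvk read 27.7 TPM and Fdft1 59.2 TPM in tumor 1, against 13.4 to 15.6 TPM and 35.0 to 38.0 TPM in the others. Scd1 read 449 TPM in tumor 3, against 26.5 to 97.9 TPM. Elovl6 read 54.9 TPM in tumor 4, against 40.8 to 41.5 TPM. Scd2 read 245 TPM in tumor 2, the lowest of the 4, against 297 to 305 TPM.

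For Fasn the log2 fold change of MYCN was 0.66 with Runx1t1 +/+ and -0.25 with Runx1t1 +/-, and neither passed the test by edgeR (adjusted p = 0.1161 and 1). The difference of the effects was -0.91 on the log2 scale (SE 0.327) and failed the correction by edgeR over all genes (adjusted p = 0.8452).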

How the results depend on the processing

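Of 48 member changes past the threshold, 27 kept the call in every alternative run for them. In all, 753 of 853 alternative values kept the call, 100 lost it with the same direction and 0 reversed. Hmgcs1, Mvk, Fdft1, Tm7sf2, Msmo1 and Acss2 kept it in all 3 tumor comparisons. Leaving out each library in turn gave 14 to 21 members called against MYCN WT Runx1t1 +/+ ganglia, 9 to 17 against Th-MYCN Runx1t1 +/+ ganglia and 7 to 16 against Th-MYCN Runx1t1 +/- ganglia, the last with a lone ganglion assumed to vary like the other groups. The shares of all genes called ran from 53.2% to 58.7% in the first comparison and from 21.3% to 40.6% in the second. In the third they ran from 42.2% to 45.8% when a tumor was left out. For MYCN in Runx1t1 +/+ ganglia, leaving out each library gave 0 to 1 members and 0% to 10.9% of genes. The 1 was without Th-MYCN ganglion 3, and DESeq2 gave 1 where edgeR gave 0. The cause of these moves was not tested. Without the 2 libraries that stood apart and with TPM in place of counts, both chosen after seeing the data, the tumor counts are in the report. With libraries over 20000000 counts alone, the Th-MYCN Runx1t1 +/- comparisons could not be fitted, and 21 members and 43.1% of genes were called against Th-MYCN Runx1t1 +/+ ganglia. With the replicate number as a block (replicate block), the 3 tumor comparisons called 17, 12 and 15 members and 55.8%, 30.2% and 45.5% of genes. Same-numbered libraries correlated above 0.1 in 7 of 25 pairs (range -0.273 to 0.308), so the numbers were not taken as pairs. The lowest member count in any library was 72.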
